A study of Mus musculus with 63 samples.

Results

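CaMKII positive cells of the motor cortex were compared, mouse by mouse, with ACSA2-positive cells sorted from more caudal cortex of the same brains. The comparison took every mouse number present in both tables of counts except number 3, which gave 10 mice (2, 8, 15 to 20, 22 and 24) and 20 of the 63 libraries of the series. All mice were female C57BL/6J, 12 weeks old at the start, and carried craniotomies over both motor cortices with an injected mixture of AAV5-CamKII-eGFP and AAV1-mDlx-mRuby2, so no animal was free of surgery or virus. Right-flank thermal burns had been given to 4 of the mice (2, 20, 22 and 24) and sham injuries to the other 6, and tissue was collected 5 weeks later. The CaMKII positive cells were gated on eGFP driven by the CaMKII promoter, without mRuby2, and the labels call them excitatory neurons. The ACSA2-positive cells were gated with an antibody and are labelled astrocytes. Region, contact with virus and antibody staining differed between the populations in every mouse, so their effects cannot be told apart here from that of cell population.

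Astrocytes clear synaptic glutamate and GABA, couple through gap junctions, buffer potassium and water, and supply lipids and trophic factors. The antibody used for the sort recognises ACSA2, an epitope of the sodium pump subunit encoded by Atp1b2, which cortical astrocytes express strongly. Excitatory cortical neurons are recognised by the vesicular glutamate transporter Slc17a7, brain endothelium by the VEGF receptor Flt1, and oligodendrocyte precursor cells by the PDGF receptor Pdgfra.

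Library totals ran from 13346143 to 134703744 counts in the CaMKII positive libraries, where mouse 2 was far above the rest, and from 18295895 to 35500238 in the ACSA2-positive libraries. Between 18011 and 25537 genes had at least 10 counts in a CaMKII positive library and between 16905 and 19946 in an ACSA2-positive one. Values below are counts relative to the library total, on the usual CPM scale. A gene with 0 counts may still have been present at up to 3 counts, which is 0.0223 to 0.225 CPM in the CaMKII positive and 0.0845 to 0.164 CPM in the ACSA2-positive libraries (counting error only). Each log2 fold change (log2FC, CaMKII positive minus ACSA2-positive, ± SE) and adjusted p-value (p.adj) came from edgeR's quasi-likelihood test, with mouse as a block and p-values adjusted by the Benjamini-Hochberg method across the 29746 genes that had enough counts. Calls of higher or lower required p.adj no greater than 0.05 together with a log2FC of 1 or more in either direction. The p-values measure the spread between these mice.

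Both populations were rich in astrocyte RNA. Slc1a2, the main glutamate transporter of astrocytes, stood at 6963 to 14683 CPM (median 11471) in the CaMKII positive libraries and at 18652 to 28042 CPM (median 22635) in the ACSA2-positive libraries (log2FC −1.19 ± 0.17, p.adj = 1.45e-05). The groups did not overlap, and the CaMKII positive library was the lower in all 10 mice. In bulk samples, fewer cells of a type and less RNA per cell cannot be told apart. Flt1 moved the other way, with 1669 to 4607 CPM (median 2108) against 79.9 to 622 CPM (median 284) (log2FC 2.89 ± 0.24, p.adj = 1.88e-08). Pdgfra rose from 0.457 to 11.1 CPM (median 4.35) in ACSA2-positive to 43.7 to 169.8 CPM (median 103) in CaMKII positive libraries (log2FC 4.34 ± 0.32, p.adj = 5.31e-09). Neither receptor overlapped between the groups, and both were higher in the CaMKII positive library of all 10 mice. Atp1b2 itself was counted at 826 to 1728 CPM (median 1508) in the CaMKII positive and 2157 to 3362 CPM (median 3013) in the ACSA2-positive libraries (log2FC −1.22 ± 0.13, p.adj = 2.86e-07).

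The label of the CaMKII positive libraries was not matched by their marker levels. Slc17a7 reached only 0.608 to 32.3 CPM (median 7.43) there, against 0 to 10.2 CPM (median 1.76) in the ACSA2-positive libraries (log2FC 2.43 ± 0.65, p.adj = 0.00804), and the groups overlapped. The summed level of the 12 astrocyte core markers was 13376 to 25094 CPM (median 21787) in CaMKII positive and 36686 to 50968 CPM (median 42169.9) in ACSA2-positive libraries. Endothelial markers summed to 6372 to 17583 CPM in the former, and excitatory neuron markers, a list that includes the astrocyte-expressed Rorb and Fezf2, to 376 to 825 CPM (41.4 to 472 CPM without that pair). The populations are therefore called by their sort and not by a cell type.

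**Figure D1:**
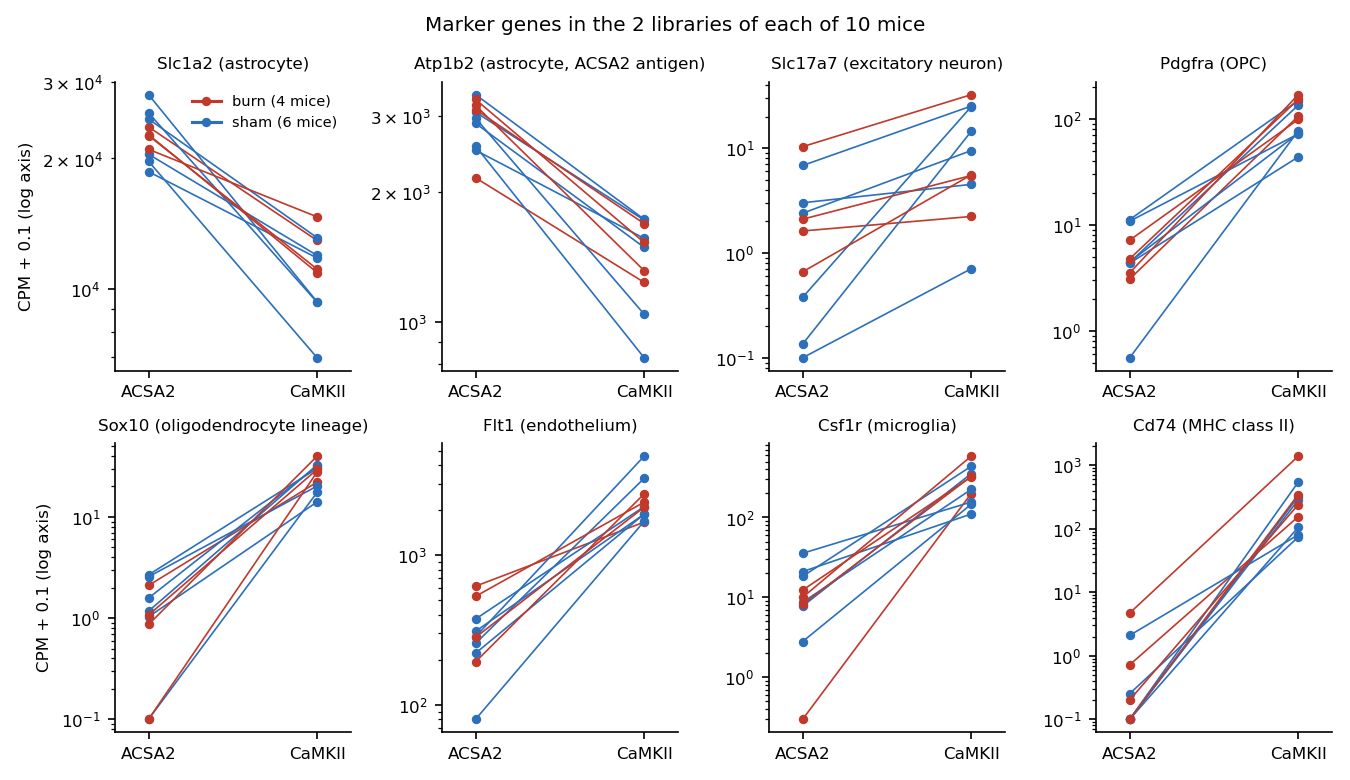
Marker genes in the 2 libraries of each of 10 mice, as CPM plus 0.1 on log axes, with 1 line per mouse (red, 4 burn mice; blue, 6 sham mice). Slc1a2 and Atp1b2 fell from ACSA2-positive to CaMKII positive libraries in all 10 mice, while Pdgfra, Sox10, Flt1, Csf1r and Cd74 were higher in the CaMKII positive library of every mouse without overlap of the groups, and Slc17a7 overlapped between them.

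Over all genes, 2607 (8.76% of those tested) were called higher and 695 (2.34%) lower in CaMKII positive libraries, and the median log2FC was 0.0027. CPM values of the 10 and 10 libraries did not overlap for 2203 genes (7.41%), with 1679 (5.64%) higher and 524 (1.76%) lower. These shares are the background for the counts of called or non-overlapping genes in the lists below. The balance of directions depended on what the libraries were scaled to. When they were scaled so that the astrocyte core list was level, 9464 genes (31.8%) were higher and only 28 (0.0941%) lower, and the median of all genes moved by 1.08 on the log2 scale. The share of calls that were higher thus went from 78.95% to 99.71%. Values below are relative to all genes unless they are said to be relative to that core list.

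**Figure D2:**
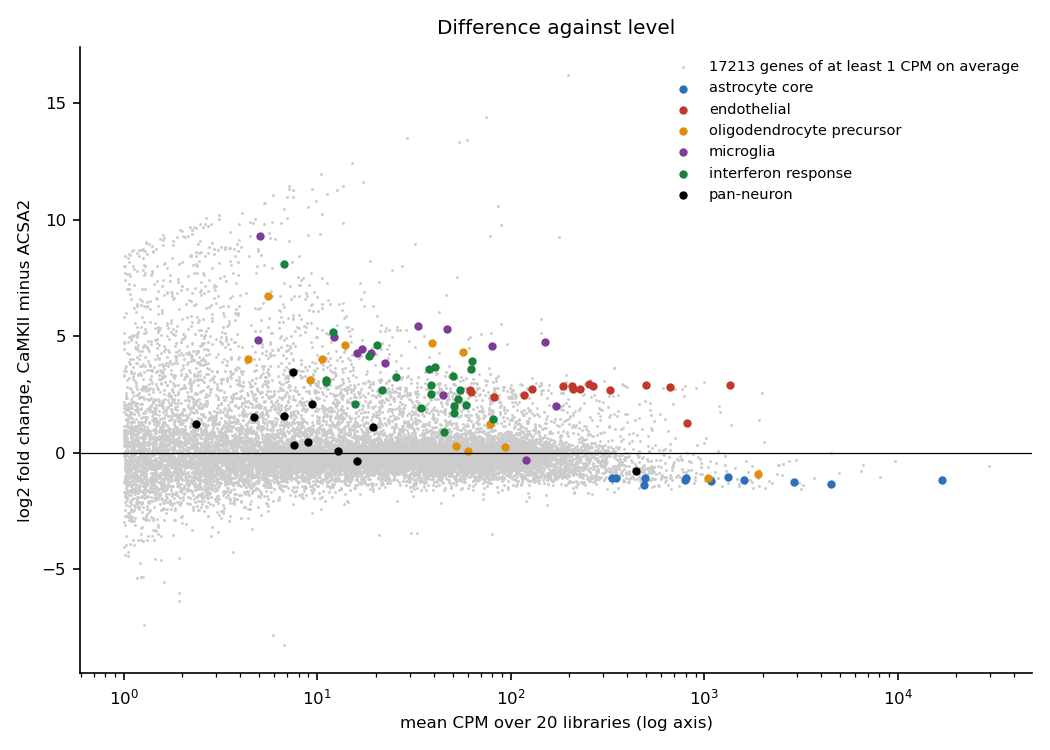
Log2 fold change between CaMKII positive and ACSA2-positive libraries (paired edgeR fit, 10 mice) against the mean CPM over 20 libraries (log axis), for 17213 genes of at least 1 CPM on average, with 6 gene lists in colour. The 12 astrocyte core genes lie in a narrow band near −1.19, a position that becomes −0.01 when libraries are scaled to those genes, and the 16 endothelial genes lie between 1.3 and 2.96.

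The astrocyte genes moved down almost in parallel. All 12 astrocyte core markers were called lower (median log2FC −1.19, range −1.37 to −1.04), 10 of them without overlap of the groups. With a mouse left out, 8 to 12 were called. Scaling to that list puts its members near 0 by construction. Slc1a3, the other glutamate transporter of astrocytes, was at 1898 to 3651 CPM (median 2914) against 5305 to 7935 CPM (median 6009.6) (log2FC −1.33 ± 0.15, p.adj = 1.13e-06). Gja1, the gap junction protein connexin 43, was at 1507 to 2261 CPM (median 1896) against 3456 to 4749 CPM (median 3849.7) (log2FC −1.25 ± 0.12, p.adj = 1.18e-07). Aqp4, the water channel of astrocyte endfeet, had a log2FC of −1.24 (p.adj = 1.14e-08). These 3 genes did not overlap between the groups. Scaled by library size alone, 7 of the 12 core markers were called lower, as were 3 of 15 genes of glutamate and GABA handling, 7 of 16 of metabolism, 5 of 17 lineage factors and 3 of 19 synapse-directed factors, lists that are described next. Mouse by mouse, the mean difference of the 12 core genes ran from −1.56 in mouse 17 to −0.649 in mouse 16, and it was negative in every mouse.

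Of 15 genes of glutamate and GABA handling, 8 were lower (5 without mouse 8) and 1 higher, and of 14 genes of coupling, water and ion transport, 9 were lower and 1 higher (2 without mouse 2 or 15). Lower members included the GABA transporter Slc6a11 (−1.29 ± 0.14, p.adj = 4.23e-07), the sodium bicarbonate cotransporter Slc4a4 (−1.19 ± 0.14, p.adj = 1.45e-06) and the endfoot membrane protein Mlc1 (−1.37 ± 0.09, p.adj = 2.72e-09), all given as log2FC. These 3 stood, relative to the core list, at −0.11, −0.01 and −0.19. Glul, which makes glutamine from glutamate, was at 3725 to 5927 CPM (median 5071) against 6764 to 9088 CPM (median 7987) (log2FC −0.81 ± 0.14, p.adj = 1.34e-04) and passed the p-value but not the fold threshold. The potassium channel Kcnj10 likewise had a log2FC of −0.61 (p.adj = 2.41e-05). Both were above the core list in all 10 mice, at 0.37 ± 0.12, p.adj = 0.0142 for Glul and 0.57 ± 0.11, p.adj = 2.00e-04 for Kcnj10 when scaled to that list. The members called higher are found in other cells too. Slc38a5, an amino acid transporter also found in endothelium, stood at 13.6 to 68.4 CPM (median 39.4) against 0.729 to 7.63 CPM (median 4.24) (log2FC 3.02 ± 0.37, p.adj = 2.72e-06), and the cation channel Trpv4 stood at 13.97 to 25.5 CPM (median 19.6) against 0.0547 to 7.18 CPM (median 2.40) (log2FC 2.99 ± 0.48, p.adj = 5.84e-05). Neither overlapped between the groups.

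Of 16 genes of astrocyte metabolism and lipid supply, 11 were lower and 1 was higher. The brain glycolytic enzyme Aldoc (log2FC −1.31 ± 0.14, p.adj = 5.69e-07), the lipid carriers Apoe (log2FC −1.30 ± 0.13, p.adj = 1.05e-07) and Clu (log2FC −1.58 ± 0.12, p.adj = 6.42e-09), and the fatty acid binding protein Fabp7 (log2FC −1.37 ± 0.16, p.adj = 1.64e-06) were lower. Slc16a1, a lactate and ketone transporter found in endothelium as well, was higher, at 239 to 736 CPM (median 317) against 107 to 162 CPM (median 136) (log2FC 1.16 ± 0.14, p.adj = 1.85e-06). The list of cholesterol synthesis had a median log2FC of −0.72 over 22 genes, and no enzyme of it was called. In it 1 gene (Apoe, a carrier placed in the same list) was called. Up to 3 were lower with a mouse left out (3 without mouse 16 or 24, 2 without mouse 2, 15 or 20). Relative to the core list, that median became 0.46.

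**Figure D3:**
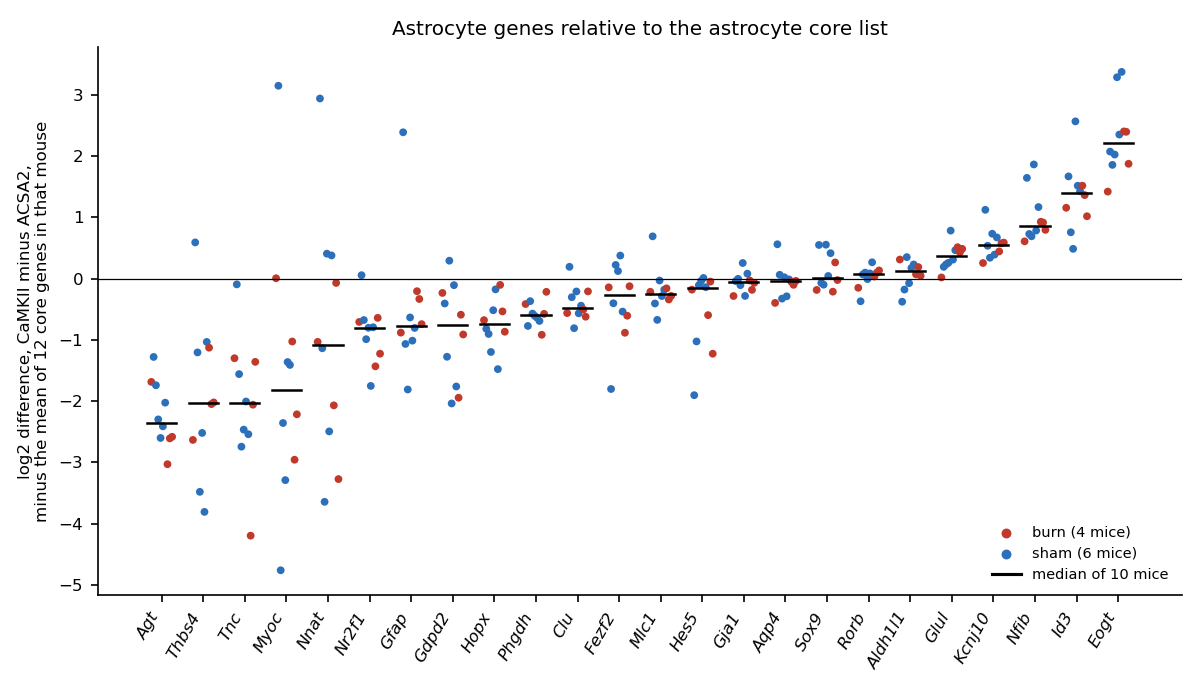
Difference between the 2 libraries of each mouse for 24 astrocyte genes, in log2 units after subtraction of the mean difference of the 12 core genes in that mouse (points, 10 mice coloured by injury; bars, medians). Agt, Thbs4 and Tnc lie furthest below 0 and Eogt and Id3 furthest above, while Sox9, Rorb and Aldh1l1 lie near 0.

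A few genes fell beyond the core list. Agt, the precursor of angiotensin, was at 7.07 to 25.3 CPM (median 14.1) in CaMKII positive and 84.9 to 226 CPM (median 157) in ACSA2-positive libraries (log2FC −3.50 ± 0.16, p.adj = 5.98e-11). Tnc, an extracellular matrix glycoprotein, was at 0.0337 to 15.0 CPM (median 7.28) against 19.4 to 116 CPM (median 58.7) (log2FC −3.45 ± 0.40, p.adj = 1.12e-06). Both were lower in 10 of 10 mice without overlap of the groups, and they remained lower when scaled to the core list (Agt −2.32 ± 0.17, p.adj = 1.37e-09; Tnc −2.30 ± 0.43, p.adj = 1.28e-04). Thbs4, a thrombospondin, was at 0.668 to 17.7 CPM (median 2.73) against 13.6 to 92.0 CPM (median 31.6) (log2FC −3.55 ± 0.38, p.adj = 4.29e-07) and at −2.42 ± 0.45, p.adj = 1.19e-04 relative to the core. Adcy8, an adenylyl cyclase, was at 1.596 to 6.37 CPM (median 3.57) against 5.36 to 25.5 CPM (median 18.1) (log2FC −2.41 ± 0.36, p.adj = 3.13e-05) and at −1.26 ± 0.42, p.adj = 0.0178 relative to the core. Of the 575 lower genes with a mean of at least 10 CPM in ACSA2-positive libraries, 567 changed by less than 1 log2 unit relative to the core, and 7 of the 28 genes that stayed lower had such a level: Agt, Tnc, Thbs4, Adcy8, Myoc, Rbp3 and Tph1, the last 3 of which were named after their values were seen. Rbp3 and Tph1 are known from pineal cells and photoreceptors, and their reads were concentrated in the ACSA2-positive libraries of mice 24 and 16. Myoc, a secreted protein of pial and some other astrocytes, went the other way in mouse 8, at 137 CPM in the CaMKII positive and 42.3 CPM in the ACSA2-positive library.

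Gfap, the intermediate filament of white matter, pial and reactive astrocytes, was at 54.0 to 429.9 CPM (median 91.2) against 181 to 898 CPM (median 313) (log2FC −1.73 ± 0.21, p.adj = 2.07e-06). The groups overlapped, with mouse 8 the highest of the CaMKII positive libraries. Its log2FC relative to the core was −0.58 ± 0.26, p.adj = 0.0750, below the fold threshold. Hopx, a homeodomain protein of radial glia and some astrocytes, was at 38.3 to 80.1 CPM (median 52.1) against 153 to 265 CPM (median 165) (log2FC −1.92 ± 0.15, p.adj = 7.76e-09), and at −0.74 relative to the core. Phgdh, the first enzyme of serine synthesis, was at 90.6 to 186 CPM (median 124) against 259.9 to 488 CPM (median 397) (log2FC −1.76 ± 0.14, p.adj = 7.75e-09), and at −0.58 relative to the core. In every one of the 10 mice Hopx and Phgdh fell by more than the mean of the core genes. On the other side, Id1, an inhibitor of DNA binding, was at 101 to 269.6 CPM (median 115) against 21.2 to 52.9 CPM (median 35.1) (log2FC 1.83 ± 0.18, p.adj = 1.51e-07), and Eogt, a glycosyltransferase acting on Notch-like repeats, was at 294 to 499.8 CPM (median 379) against 85.4 to 222 CPM (median 150.4) (log2FC 1.13 ± 0.13, p.adj = 1.65e-06). Neither overlapped between the groups, and Eogt exceeded the core mean in all 10 mice. Whether astrocytes or other cells of these libraries held the 2 transcripts was not tested.

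Of 17 factors of the astrocyte lineage, 8 were lower and none higher. Sox9 (log2FC −1.06 ± 0.09, p.adj = 1.93e-08), Id4 (log2FC −1.28 ± 0.09, p.adj = 3.11e-09), Lhx2 (log2FC −1.20 ± 0.12, p.adj = 2.08e-07) and Hes5, a Notch target (log2FC −1.70 ± 0.21, p.adj = 2.11e-06), were lower, whereas Nfib, at 329 to 462 CPM (median 406) against 357 to 453 CPM (median 396), had a log2FC of −0.17 (p.adj = 0.204, named after its values were seen). Of 19 factors that astrocytes direct at synapses, 7 were lower, among them the glypican Gpc5 (log2FC −1.27 ± 0.16, p.adj = 3.23e-06) and the hevin gene Sparcl1 (log2FC −1.11, named after its values were seen), and 4 were higher. Those 4 were the thrombospondins Thbs1 (log2FC 4.27 ± 0.66, p.adj = 4.42e-05) and Thbs2 (log2FC 2.16 ± 0.43, p.adj = 5.57e-04), the ephrin Efnb2 (log2FC 1.77 ± 0.20, p.adj = 7.47e-07) and the matrix protein Sparc (log2FC 1.13 ± 0.14, p.adj = 2.10e-06), which vascular or blood-derived cells can also make. Relative to the core, Thbs4 alone of the 19 was lower.

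Because the tissues came from different regions, genes that pattern the cortex were examined next. Of 25 regional patterning genes tested, 6 were lower and 3 higher, the latter count falling to 1 without mouse 18, 20 or 22, against 2.34% of all genes lower and 8.76% higher. The count of higher genes was thus near that of all genes. Nr2f1, whose protein is graded from caudal to rostral cortex during development, was at 30.2 to 77.0 CPM (median 51.3) in CaMKII positive and 159 to 223 CPM (median 189) in ACSA2-positive libraries (log2FC −2.10 ± 0.12, p.adj = 6.88e-10), lower in 10 of 10 mice without overlap. Relative to the core its log2FC was −0.92 ± 0.15, p.adj = 2.46e-05, just under the fold threshold, and it fell further than the core mean in 9 of 10 mice. Fezf2, at 3.63 to 41.0 CPM (median 18.5) against 32.4 to 60.5 CPM (median 50.2) (log2FC −1.59 ± 0.24, p.adj = 3.16e-05), and Dmrta2, at 5.55 to 27.2 CPM (median 13.3) against 16.6 to 37.5 CPM (median 29.4) (log2FC −1.26 ± 0.19, p.adj = 2.52e-05), were lower too, but stood at −0.43 and −0.08 relative to the core. Lhx2 and Emx2 moved with the core list (log2FC −1.20 and −1.20, the latter named after its values were seen). Bcl11b, a factor of deep-layer neurons and of T cells, was higher, at 0 to 9.82 CPM (median 5.79) against 0 to 1.08 CPM (median 0.107) (log2FC 4.77 ± 0.96, p.adj = 7.80e-04). Relative to the core, 8 of the 25 were higher and none lower, against 31.8% and 0.0941% of all genes, so the share that was higher matched that of all genes.

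**Figure D4:**
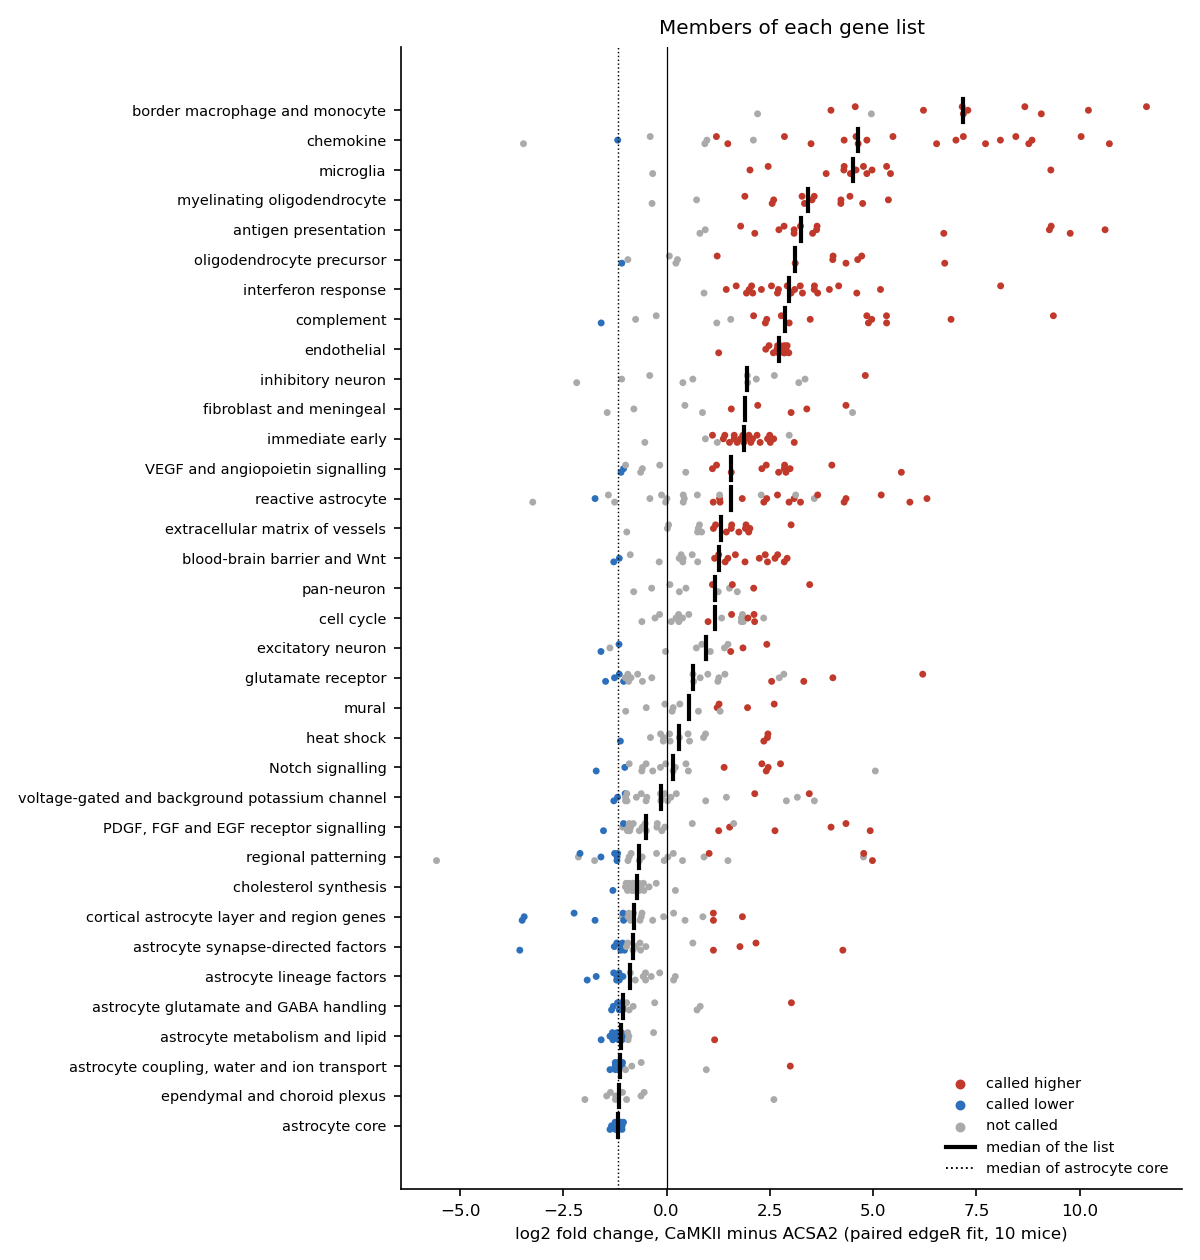
Log2 fold change (CaMKII positive minus ACSA2-positive, paired edgeR fit over 10 mice) of the members of the gene lists, with 1 point per gene coloured by its call, a bar at each list's median and a dotted line at the median of the astrocyte core. Among the lists plotted, the macrophage, chemokine and microglial lists have the highest medians (7.17, 4.64 and 4.52; that of the macrophage list is 5.94 with genes of no ACSA2 count at their lower bound), those of the astrocyte glutamate, coupling and metabolism lists lie near the dotted line and that of the reactive astrocyte list above 0, and scaling to the core list moves the median of all genes right by 1.08.

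Endothelial genes were higher throughout. All 16 endothelial markers were called higher (median log2FC 2.73), and none overlapped between the groups. Besides Flt1, the VEGF receptor Kdr was at 340.4 to 939 CPM (median 408) against 24.7 to 125 CPM (median 56.9) (log2FC 2.86 ± 0.23, p.adj = 1.30e-08). The tight junction protein Cldn5 was at 368 to 1232 CPM (median 489.8) against 32.1 to 152 CPM (median 74.5) (log2FC 2.69 ± 0.22, p.adj = 1.68e-08). Abcb1a, the drug efflux pump of the blood-brain barrier, was at 549 to 1687 CPM (median 784) against 32.4 to 215 CPM (median 104) (log2FC 2.92 ± 0.24, p.adj = 1.34e-08). The glucose transporter Slc2a1, which astrocytes carry as well, differed least, at 764 to 1991 CPM (median 974) against 352 to 514 CPM (median 420.5) (log2FC 1.3 ± 0.14, p.adj = 8.84e-07). The endothelial markers summed to 681 to 2546 CPM in ACSA2-positive libraries, so these transcripts were present on both sides of the comparison.

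Of 19 genes of VEGF and angiopoietin signalling, 12 were higher and 2 lower. The receptors Flt4 (log2FC 2.99 ± 0.27, p.adj = 4.04e-08) and Tek (log2FC 2.85 ± 0.23, p.adj = 1.50e-08) were higher with Flt1 and Kdr. Among ligands, Vegfa, which astrocytes secrete, was at 210.1 to 954 CPM (median 448) against 474 to 783 CPM (median 638) (log2FC −0.59, p.adj = 0.00647, named after its values were seen), Vegfb was at 16.4 to 32.7 CPM (median 24.9) against 36.8 to 59.2 CPM (median 48.6) (log2FC −1.10 ± 0.11, p.adj = 2.93e-07) and Angpt1, the agonist of the Tek receptor, at 2.42 to 9.39 CPM (median 4.70) against 3.74 to 24.3 CPM (median 9.18) (log2FC −1.04 ± 0.36, p.adj = 0.0420). Angpt2, the context-dependent antagonist made by endothelium, was higher in all 10 mice, at 4.19 to 17.1 CPM (median 7.72) against 0 to 3.99 CPM (median 0.713) (log2FC 4.0 ± 0.98, p.adj = 0.00418). The call of Angpt1 was lost without mouse 2, 15, 16, 18, 19, 20 or 22 (p.adj up to 0.124). Relative to the core neither Vegfb nor Angpt1 was lower (0.08 and 0.10).

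Of 23 genes of the blood-brain barrier and Wnt signalling, 13 were higher and 2 lower. The ligands Ndp (log2FC −1.28 ± 0.17, p.adj = 4.72e-06) and Wnt7b (log2FC −1.15 ± 0.14, p.adj = 1.78e-06) were lower, Wnt7a did not reach the fold threshold (log2FC −0.88 ± 0.15, p.adj = 1.60e-04), and all 3 were level with the core list (−0.11, 0.03 and 0.29). The Wnt7 co-receptor Adgra2 was higher, at 139 to 314 CPM (median 173) against 10.2 to 57.2 CPM (median 34.9) (log2FC 2.39 ± 0.21, p.adj = 3.21e-08), as was the tight junction protein Ocln (log2FC 2.44 ± 0.15, p.adj = 9.35e-10). Of 18 genes of the vascular matrix, 11 were higher and none lower (up to 1 lower with a mouse left out). Fn1, fibronectin, was at 886 to 3036 CPM (median 1686) against 56.4 to 374 CPM (median 174) (log2FC 3.01 ± 0.22, p.adj = 5.38e-09), and the collagen IV chains Col4a1 and Col4a2 had log2FC values of 1.91 and 1.75 (p.adj = 1.02e-08 and p.adj = 4.52e-09).

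Mural markers were more mixed. Of 12 mural markers, 4 were higher and none lower, against 8.76% and 2.34% of all genes, with a median log2FC of 0.54. The pericyte receptor Pdgfrb was at 173 to 308 CPM (median 229) against 229 to 391 CPM (median 297) (log2FC −0.49 ± 0.12, p.adj = 0.00410), and the pericyte ATP-binding cassette subunit Abcc9 was at 28.8 to 142 CPM (median 89.0) against 19.9 to 99.1 CPM (median 62.3) (log2FC 0.32 ± 0.27, p.adj = 0.497). Smooth muscle genes were spread widely between mice, with Acta2 at 6.13 to 286 CPM (median 35.9) against 0.0563 to 34.1 CPM (median 18.5) (log2FC 1.295 ± 0.75, p.adj = 0.276) and Myh11 at 2.53 to 170.2 CPM (median 21.0) against 0.0810 to 6.34 CPM (median 4.35) (log2FC 2.60 ± 0.57, p.adj = 0.00164). Of 10 fibroblast and meningeal markers, 5 were higher, including Pdgfra, Fn1 and the collagen Col3a1 (log2FC 3.39 ± 0.51, p.adj = 3.10e-05). Notch ligands of vessels rose in the Notch list, where Jag2 was at 129.9 to 250.3 CPM (median 157) against 8.46 to 50.2 CPM (median 23.2) (log2FC 2.76 ± 0.17, p.adj = 1.45e-09) and Dll4 at 59.7 to 150.2 CPM (median 107) against 4.57 to 46.4 CPM (median 18.9) (log2FC 2.41 ± 0.20, p.adj = 1.26e-08), with 5 of 19 genes higher and 2 (Hes5 and Nrarp) lower, the latter not without mouse 8 (log2FC −0.85) or mouse 20 (−0.98).

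Most oligodendrocyte lineage markers were also higher in the CaMKII positive libraries. Of 13 precursor markers 8 were higher and 1 lower, and of 14 myelinating oligodendrocyte markers 12 were higher and none lower, against 8.76% of all genes higher. The summed levels went in different directions. Myelinating markers summed to more in the CaMKII positive library of all 10 mice (median 778 against 269.7 CPM), whereas precursor markers, a list that holds genes shared with astrocytes, summed to less in all 10 (median 3055 against 4022 CPM), and to less in 5 of 10 without the most abundant of them, Ptprz1 (median 1496 against 1624 CPM). Gpr17, a receptor of committed precursors, was at 28.8 to 146 CPM (median 67.9) against 1.15 to 4.54 CPM (median 2.44) (log2FC 4.72 ± 0.32, p.adj = 2.40e-09). Sox10, the transcription factor of the whole lineage, was at 13.95 to 39.7 CPM (median 28.5) against 0 to 2.57 CPM (median 1.02) (log2FC 4.63 ± 0.53, p.adj = 1.03e-06). Neither overlapped between the groups. Other genes of the precursor list that astrocytes share did not rise with them: Olig2 was at 13.6 to 90.9 CPM (median 64.7) against 21.4 to 59.6 CPM (median 43.2) (log2FC 0.26 ± 0.14, p.adj = 0.234), and the proteoglycan gene Cspg5 was lower (log2FC −1.08 ± 0.15, p.adj = 1.48e-05), though level with the core (0.09) and not called without mouse 8 (log2FC −0.96). Among myelin genes, Mbp was at 41.9 to 1799.8 CPM (median 182) against 12.3 to 65.5 CPM (median 25.1) (log2FC 2.55 ± 0.30, p.adj = 1.33e-06), while Cnp was at 82.5 to 271 CPM (median 124) against 105 to 189 CPM (median 146) (log2FC −0.35 ± 0.12, p.adj = 0.0354). The highest myelin levels were those of mouse 8.

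Of 25 genes of PDGF, FGF and EGF receptor signalling, 6 were higher and 2 lower, against 8.76% and 2.34% of all genes. Their summed level, however, was lower in the CaMKII positive library of all 10 mice (median 2639 against 3693 CPM). Besides Pdgfra, the neuregulin receptor Erbb3 was higher, at 8.92 to 19.8 CPM (median 12.6) against 0 to 2.57 CPM (median 1.03) (log2FC 3.98 ± 0.59, p.adj = 2.41e-05), as was the endothelial ligand Pdgfb, at 124 to 334 CPM (median 161) against 8.06 to 49.5 CPM (median 25.7) (log2FC 2.62 ± 0.19, p.adj = 4.52e-09). The astrocytic receptor Fgfr3 (log2FC −1.04 ± 0.13, p.adj = 3.63e-06) and the ligand Pdgfc (log2FC −1.53 ± 0.28, p.adj = 3.10e-04) were lower, and neither was so relative to the core (0.14 and −0.35). The call of Fgfr3 was lost without mouse 8 (log2FC −0.95) and without mouse 17 (−0.999).

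Microglial RNA was scarce in ACSA2-positive libraries and higher in CaMKII positive ones, although neither sort selected for it. Of 14 microglial markers, 13 were higher (median log2FC 4.52). Csf1r, the receptor on which microglia depend, was at 110.4 to 586 CPM (median 273) against 0.197 to 35.5 CPM (median 9.24) (log2FC 4.76 ± 0.47, p.adj = 1.42e-07). The purinergic receptor P2ry12 was at 28.9 to 122 CPM (median 74.4) against 4.56 to 17.0 CPM (median 13.1) (log2FC 2.46 ± 0.23, p.adj = 6.12e-08) and the surface protein Tmem119 at 27.3 to 118 CPM (median 55.5) against 0.245 to 3.76 CPM (median 1.48) (log2FC 5.42 ± 0.36, p.adj = 1.85e-09). None of these 3 overlapped between the groups. Sall1, which some astrocytes also express, was the exception, at 59.1 to 154 CPM (median 121) against 96.1 to 142 CPM (median 132) (log2FC −0.34 ± 0.09, p.adj = 0.0114). For scale, Csf1r reached 5920.4 to 9067 CPM (median 7456) in the CD11b-positive libraries of the same mice.

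Genes of border macrophages and monocytes were called in 10 of 12 cases, and 4 of the 12 had no count in any ACSA2-positive library. Ccr2, the chemokine receptor of monocytes, was at 0 to 53.2 CPM (median 14.03) and was 0 in most ACSA2-positive libraries (0 to 0.810 CPM (median 0)). Ly6c2, another monocyte gene, was at 6.80 to 62.7 CPM (median 22.3) against 0 to 4.06 CPM (median 1.97) (log2FC 3.98 ± 0.67, p.adj = 1.14e-04). Pf4, a gene of border macrophages, was near the detection limit on both sides, at 0 to 1.10 CPM (median 0.0742) against 0 (p.adj = 0.127). Over all genes tested, only immunoglobulin genes, described further on, had a larger fitted log2FC than Plbd1, a phospholipase gene of myeloid cells. That rank depended on single mice: H2-Aa (14.80 without mouse 2) and Cybb (12.81 without mouse 17) passed the highest leave-one-out value of Plbd1, 12.17. Plbd1 was at 2.63 to 82.1 CPM (median 14.6) against no count in 10 ACSA2-positive libraries. Its mean CPM was 169.6-fold the mean floor of 3 counts in those libraries, a bound on the ratio of means and not on single libraries. Cybb, the catalytic subunit of the phagocyte oxidase, was at 2.01 to 146 CPM (median 17.1) and was detected in 1 ACSA2-positive library, at 0.0347 CPM (p.adj = 2.47e-12).

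Most complement and chemokine genes were higher as well. Of 18 complement genes tested, 13 were higher and 1 lower. Their summed level was lower in the CaMKII positive library of all 10 mice with Clu, which made up most of the sum in ACSA2-positive libraries, and higher in all 10 without it (median 699 against 162 CPM). C1qa was at 17.3 to 273 CPM (median 81.1) against 0 to 9.39 CPM (median 2.20) (log2FC 5.33 ± 0.47, p.adj = 3.11e-08), the receptor C3ar1 at 7.67 to 80.5 CPM (median 23.4) against 0.0405 to 6.28 CPM (median 0.336) (log2FC 5.32 ± 0.72, p.adj = 8.37e-06), and Clu, a complement inhibitor of astrocytes, was the lower one. C4b, which astrocytes make, was at 31.3 to 263 CPM (median 117) against 89.8 to 234 CPM (median 116) (log2FC −0.25 ± 0.21, p.adj = 0.503). Of 25 chemokine genes, 19 were higher and 1 lower (median log2FC 4.64, with or without genes of no ACSA2 count held at their lower bound). Cxcl9 was at 0.267 to 43.8 CPM (median 4.10) with no count in ACSA2-positive libraries, and its mean CPM was 86.1-fold the mean floor of 3 counts there. Cxcl12, which endothelium secretes, was far more abundant, at 863 to 2817 CPM (median 1255) against 47.9 to 442 CPM (median 185) (log2FC 2.85 ± 0.25, p.adj = 3.51e-08), and the lower gene was Cxcl14, an astrocyte chemokine, at 136 to 336 CPM (median 268) against 438 to 565 CPM (median 503) (log2FC −1.18 ± 0.13, p.adj = 6.54e-07).

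Interferon-stimulated genes were raised as a block. These genes are switched on when type I interferon activates a complex that holds STAT2 and IRF9 and binds the interferon-stimulated response element. Of 24 such genes, 23 were called higher, and those 23 did not overlap between the groups (median log2FC 2.97). Ifit1, an antiviral RNA-binding protein, was at 26.8 to 126 CPM (median 68.6) against 2.36 to 9.44 CPM (median 5.04) (log2FC 3.57 ± 0.26, p.adj = 4.70e-09), Isg15, a ubiquitin-like modifier, at 7.92 to 32.7 CPM (median 18.7) against 0.711 to 3.97 CPM (median 2.14) (log2FC 3.01 ± 0.37, p.adj = 2.27e-06), and Rsad2, the antiviral enzyme viperin, at 31.9 to 96.8 CPM (median 71.9) against 5.30 to 18.7 CPM (median 9.34) (log2FC 2.54 ± 0.22, p.adj = 2.90e-08). These 3 were chosen after their values were seen. All but 1 of the other members separated likewise. The transcription factor Irf7 was at 37.1 to 207 CPM (median 119) against 3.97 to 13.8 CPM (median 5.65) (log2FC 3.94 ± 0.33, p.adj = 1.86e-08), and the interferon-inducible GTPase Iigp1 at 21.3 to 132 CPM (median 75.7) against 1.21 to 12.8 CPM (median 5.55) (log2FC 3.66 ± 0.43, p.adj = 1.29e-06). Mx1 was at 1.63 to 30.6 CPM (median 12.5) and was 0 in most ACSA2-positive libraries (0 to 0.648 CPM (median 0)). The components of the activating complex differed less, with log2FC values of 1.44 for Stat2 and 1.68 for Irf9 (p.adj = 1.95e-07 and p.adj = 3.12e-08). The member not called was Ifi27, at 40.6 to 101 CPM (median 59.3) against 20.2 to 41.0 CPM (median 28.3) (log2FC 0.91 ± 0.13, p.adj = 1.25e-05).

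Promoters were searched for the response element, spelled as GAAA, then 2 bases of any kind, then GAAA, on either strand, in the 250 bases before each RefSeq transcription start (GRCm38.p6). Of the 24 genes, 17 matched a promoter entry, with 21 windows, and 9 of those windows (42.86%) held the letters, against 978 of 32851 windows (2.977%) over all genes. Overlapping matches were kept. The 9 belonged to Stat2, Isg15, Ifit1, Ifit3, Oas1a, Rsad2, Bst2, Gbp2 and Gbp3. A match is a description of the letters and not evidence of binding. Shown, because their levels are given above and their matches differ in number and strand, are the windows of Ifit1 (chr19:34640639-34640888, plus strand), Isg15 (chr4:156200819-156201068, minus strand) and Rsad2 (chr12:26456453-26456702, minus strand), each written 5′ to 3′ in the direction of the gene with the matches in capitals.
Ifit1: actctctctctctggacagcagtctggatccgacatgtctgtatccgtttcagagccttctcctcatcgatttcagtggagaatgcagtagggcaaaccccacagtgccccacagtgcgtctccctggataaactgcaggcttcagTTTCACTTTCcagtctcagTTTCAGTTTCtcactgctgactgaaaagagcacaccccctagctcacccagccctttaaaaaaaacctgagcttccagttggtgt
Isg15: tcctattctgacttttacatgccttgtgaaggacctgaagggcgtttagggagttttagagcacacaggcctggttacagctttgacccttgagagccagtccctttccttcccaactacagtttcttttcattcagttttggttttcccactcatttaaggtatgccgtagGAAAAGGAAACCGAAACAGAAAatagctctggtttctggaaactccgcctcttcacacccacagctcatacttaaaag
Rsad2: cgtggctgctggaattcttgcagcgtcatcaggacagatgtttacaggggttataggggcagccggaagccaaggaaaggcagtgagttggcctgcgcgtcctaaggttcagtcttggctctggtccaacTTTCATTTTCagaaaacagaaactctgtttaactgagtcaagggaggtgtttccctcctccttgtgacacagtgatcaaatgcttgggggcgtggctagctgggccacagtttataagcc
The 2 matches of Ifit1 lie on the opposite strand to the gene and begin 104 and 85 bases before the start. Those of Isg15 lie on the gene's own strand and form an overlapping run of 3, beginning 78, 72 and 66 bases before the start, and the single match of Rsad2 begins 120 bases before it.

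A further comparison, chosen after the values were seen, set the CaMKII positive libraries against the libraries of cells positive for both eGFP and mRuby2, which were sorted from the same motor cortex (9 of these mice were used, since the authors excluded that of mouse 8). In that comparison 20.0% of 29558 genes were higher and 15.5% lower in the CaMKII positive libraries. Of the 24 interferon genes, 13 were higher and 2 lower (median log2FC 1.38). Ifit1 was at 2.97 to 7.07 CPM (median 5.44) in the double-positive libraries (log2FC 3.59 ± 0.23, p.adj = 4.41e-09), lower than in the CaMKII positive library in 9 of 9 mice, and at 0.908 to 5.82 CPM (median 2.38) in the CD11b-positive libraries. Csf1r, by contrast, was at 4299 to 6570.1 CPM (median 5086) in the double-positive libraries (log2FC −4.45 ± 0.28, p.adj = 4.19e-09). Those libraries carry the label of inhibitory neurons, which this level of a microglial gene does not match. The highest Ifit1 levels and the highest Csf1r levels were found in different populations, and which cells held the interferon transcripts was not tested. Flt1 was at 7.21 to 115 CPM (median 15.3) and Pdgfra at 0.953 to 14.8 CPM (median 3.08) in the double-positive libraries, also below the CaMKII positive levels. This comparison uses the CaMKII positive libraries of the main comparison again, so its values stand beside the others and are not a separate test of them.

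**Figure D5:**
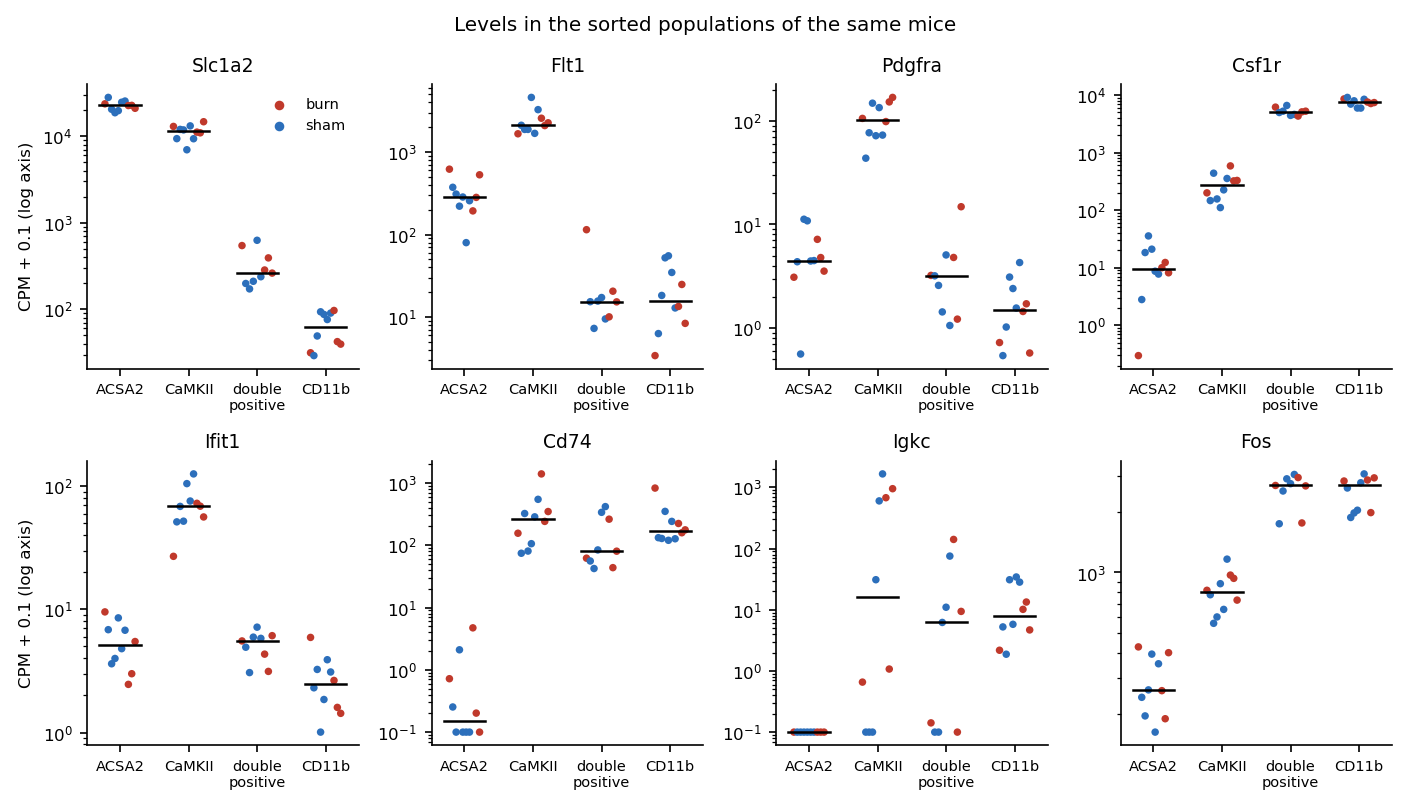
CPM plus 0.1 (log axes) of 8 genes in the 4 sorted populations of these mice, with 1 point per library coloured by injury and a bar at each median. Ifit1 and Flt1 are highest in CaMKII positive libraries (median Ifit1 68.6 CPM there against 5.04, 5.44 and 2.38 CPM in ACSA2-positive, double-positive and CD11b-positive libraries), Csf1r and Fos are highest in double-positive and CD11b-positive libraries, and Igkc is spread from 0 to 1664 CPM within the CaMKII positive libraries.

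All 17 genes of antigen presentation separated the groups without overlap, and 15 passed the fold threshold. Class I molecules display cytosolic peptides and are found on most cells: H2-D1 was at 267 to 1064 CPM (median 519.9) against 34.7 to 82.5 CPM (median 53.2) (log2FC 3.09, named after its values were seen), H2-Q4 at 68.9 to 232 CPM (median 148) against 4.21 to 17.8 CPM (median 9.03) (log2FC 3.64 ± 0.22, p.adj = 1.02e-09). Reads of class I genes can be shared between close paralogs, so their split between members is uncertain. Of the peptide transporter, Tap1 was at 29.0 to 127 CPM (median 55.7) against 5.25 to 27.3 CPM (median 15.8) (log2FC 1.79 ± 0.28, p.adj = 5.31e-05) and Tap2 at 48.5 to 121 CPM (median 66.0) against 27.8 to 47.5 CPM (median 34.8) (log2FC 0.81 ± 0.14, p.adj = 1.77e-04).

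Class II molecules, which antigen-presenting cells use to show peptides to CD4 T cells, were all but absent from ACSA2-positive libraries. The chains H2-Aa (36.6 to 726 CPM (median 116)), H2-Ab1 (29.3 to 747 CPM (median 117)) and H2-Eb1 (25.2 to 634 CPM (median 106)) were present in every CaMKII positive library, whereas their medians in ACSA2-positive libraries were 0 and their highest values there 0.704, 0.704 and 1.01 CPM. The invariant chain Cd74 was at 74.2 to 1395 CPM (median 263) against 0 to 4.62 CPM (median 0.0509), and the class II transactivator Ciita at 1.80 to 43.1 CPM (median 8.83) against 0 to 1.72 CPM (median 0). All 5 passed the test, from p.adj = 3.93e-10 for H2-Aa to p.adj = 8.02e-06 for Ciita, and all were higher in 10 of 10 mice. The fitted folds rest on few ACSA2-positive counts. Leaving out mouse 2 moved log2FC from 10.61 to 14.80 for H2-Aa, from 9.77 to 11.02 for H2-Ab1 and from 9.31 to 10.43 for H2-Eb1. Leaving out mouse 16 moved it from 9.27 to 9.97 for Cd74 and from 6.71 to 7.36 for Ciita, and leaving out mouse 15 gave 7.39 for Ciita. Cd74 was at 42.2 to 416 CPM (median 80.1) in the double-positive and 119.8 to 827 CPM (median 167) in the CD11b-positive libraries.

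Class II promoters carry a conserved Y box, searched here as CTGATTGG on either strand. It occurred in 6 of 14 windows (42.86%) of the 12 antigen presentation genes matched to RefSeq, those of H2-D1, H2-T23, Tap1, Psmb9, H2-Aa and H2-Eb1, and in 1258 of 32851 windows (3.829%) over all genes. Of the genes with a match, only H2-Aa and H2-Eb1 are class II. The letters are not particular to this list: they were in 25% of pan-neuron and 25% of cholesterol synthesis windows, and in 0% of interferon and microglia windows. The 2 windows of H2-DMa, a class II gene of peptide loading, did not hold these letters. The windows of both matched chains of the class II molecules are shown for the position of the box, with the match in capitals, for H2-Aa (chr17:34287824-34288073, minus strand) and H2-Eb1 (chr17:34305617-34305866, plus strand).
H2-Aa: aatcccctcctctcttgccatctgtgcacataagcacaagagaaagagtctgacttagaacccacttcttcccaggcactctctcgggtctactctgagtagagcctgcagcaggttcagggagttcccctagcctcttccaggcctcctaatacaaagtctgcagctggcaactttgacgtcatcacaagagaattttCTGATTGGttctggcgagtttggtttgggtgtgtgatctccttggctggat
H2-Eb1: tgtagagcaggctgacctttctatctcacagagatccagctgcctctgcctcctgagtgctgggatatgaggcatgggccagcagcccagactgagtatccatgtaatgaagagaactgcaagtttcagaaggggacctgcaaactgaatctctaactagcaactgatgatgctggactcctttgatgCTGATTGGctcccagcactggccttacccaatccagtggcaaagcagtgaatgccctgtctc
The box begins 51 bases before the start of H2-Aa and 62 bases before that of H2-Eb1, on the gene's own strand in both.

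Antibody genes varied widely between mice. The 17 immunoglobulin and plasma cell genes were listed after their values were seen, so their counts are a description. Igkc, the kappa light chain constant region, had no count in any ACSA2-positive library. Among CaMKII positive libraries it was 0 in mice 8, 15 and 16, 0.557 CPM in mouse 2, 0.974 in mouse 22 and 30.9 in mouse 17, and it reached 602 in mouse 18, 679.5 in mouse 20, 954 in mouse 24 and 1664 in mouse 19. Both burn and sham mice were in the high and the low set. Ighm, the heavy chain of IgM, was steadier, at 3.14 to 341 CPM (median 18.9) against 0 to 3.08 CPM (median 0.132) (log2FC 6.75 ± 0.44, p.adj = 1.67e-09), without overlap. Igkc was at 0 to 141 CPM (median 6.11) in double-positive and 1.78 to 34.3 CPM (median 7.87) in CD11b-positive libraries. T cell genes, listed likewise, were called in 11 of 12 cases at low levels: Cd3e was at 0.122 to 10.5 CPM (median 5.43) with a highest ACSA2-positive value of 0.352 CPM.

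Of 32 genes used to describe reactive astrocytes, 16 were higher and 1 (Gfap) lower. Several that rose are also made by other cells. Cd14, a receptor of myeloid cells, was at 5.29 to 71.2 CPM (median 10.2) against 0 to 0.971 CPM (median 0.196) (log2FC 5.19 ± 0.72, p.adj = 1.12e-05), Cp, the ferroxidase ceruloplasmin, at 63.8 to 196 CPM (median 113) against 20.1 to 44.6 CPM (median 31.2) (log2FC 1.83), and Osmr, the oncostatin M receptor, at 63.7 to 150.1 CPM (median 87.4) against 25.3 to 40.2 CPM (median 35.8) (log2FC 1.29), the latter pair named after their values were seen. Lcn2 was near the detection limit in both groups, at 0 to 8.04 CPM (median 1.98) against 0 to 0.601 CPM (median 0) (p.adj = 0.00826), and Aspg was not called (log2FC −1.41 ± 0.80, p.adj = 0.268).

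Immediate early genes, which are induced within minutes by activity, injury or handling of cells, were higher too. Of 25, 21 were called higher and none lower, and 18 did not overlap between the groups. Fos was at 560.4 to 1164 CPM (median 796) against 162 to 428 CPM (median 262) (log2FC 1.37 ± 0.13, p.adj = 7.46e-08, named after its values were seen), Egr2 at 13.1 to 29.5 CPM (median 18.0) against 0.891 to 4.51 CPM (median 1.90) (log2FC 3.09 ± 0.30, p.adj = 1.00e-07) and Klf4 at 294 to 814 CPM (median 423) against 22.0 to 154 CPM (median 73.8) (log2FC 2.50 ± 0.19, p.adj = 5.84e-09). Genes of the list that mark active neurons were low, with Arc at 2.86 to 48.6 CPM (median 7.85) against 1.37 to 17.2 CPM (median 3.93) (log2FC 0.94 ± 0.37, p.adj = 0.0844) and Egr4 at 0 to 1.57 CPM (median 0.115) against 0 to 2.05 CPM (median 0.101) (log2FC −0.53 ± 1.74, p.adj = 0.894). The order was different against the double-positive libraries, where 2 of the 25 were higher and 15 lower (median log2FC −1.74), and Fos was at 1741 to 3051 CPM (median 2691) (log2FC −1.87 ± 0.13, p.adj = 7.12e-09). Of 15 heat shock genes, 3 were higher and 1 lower, against 8.76% and 2.34% of all genes, and the median log2FC of the list was 0.31. The inducible Hspa1a was at 120.4 to 1144 CPM (median 617) against 22.8 to 158 CPM (median 108) (log2FC 2.44 ± 0.27, p.adj = 5.07e-07), its neighbour and near-copy Hspa1b had a log2FC of 2.45 (reads can be shared between the pair), and the small heat shock gene Hspb1 was at 110.0 to 288 CPM (median 165) against 7.77 to 64.6 CPM (median 32.5) (log2FC 2.35 ± 0.21, p.adj = 4.37e-08). The time each population spent in dissociation and sorting was not tested.

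Cell cycle genes were low throughout, with 5 of 20 called higher (3 without mouse 17 or 22), against 8.76% of all genes. Ccnd1, cyclin D1, was the most abundant of these, at 62.7 to 144 CPM (median 77.7) against 11.3 to 27.5 CPM (median 17.3) (log2FC 2.12 ± 0.17, p.adj = 1.36e-08), followed by the replication helicase subunit Mcm6 at 11.5 to 48.1 CPM (median 18.1) against 2.39 to 10.6 CPM (median 5.83) (log2FC 1.57 ± 0.25, p.adj = 4.55e-05), and Top2a, a topoisomerase of dividing cells, was at 0 to 13.5 CPM (median 8.47) against 0 to 7.05 CPM (median 2.00) (log2FC 1.97 ± 0.57, p.adj = 0.0144).

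Neuronal markers were low in both populations. Of 12 excitatory neuron markers, 3 were higher and 2 lower, against 8.76% of all genes higher. Their summed level was higher in the CaMKII positive library of 1 of 10 mice with Rorb and Fezf2, which made up most of the sum in ACSA2-positive libraries, and of 9 of 10 without them (median 146 against 44.7 CPM). Camk2a, the gene whose promoter drives the eGFP reporter, was at 17.8 to 348 CPM (median 89.0) against 7.30 to 85.4 CPM (median 22.2) (log2FC 1.85 ± 0.29, p.adj = 4.77e-05), and Nrgn, a postsynaptic calmodulin-binding protein, at 4.27 to 53.6 CPM (median 19.0) against 1.75 to 14.4 CPM (median 5.19) (log2FC 1.55 ± 0.33, p.adj = 0.00111). Of 12 pan-neuronal markers, 4 were called higher, including the synaptic vesicle fusion protein Snap25 at 6.01 to 54.4 CPM (median 22.3) against 2.79 to 52.1 CPM (median 8.10) (log2FC 1.109 ± 0.32, p.adj = 0.0155) and Stmn2, a growth cone protein, at 3.90 to 21.7 CPM (median 15.1) against 0 to 3.85 CPM (median 1.58) (log2FC 3.46 ± 0.80, p.adj = 0.00250). The summed level of the 12 was higher in the CaMKII positive library of none of the 10 mice with Map2, a cytoskeletal gene that made up most of the sum in ACSA2-positive libraries, and of 8 of 10 without it (median 123 against 57.6 CPM). The groups did not overlap for Stmn2 and overlapped for the other 3. The call of Snap25 was lost without mouse 17 (log2FC 0.88) and without mouse 18 (0.996). Of 12 inhibitory neuron markers, 1 (Dlx1) was higher, a share near the 8.76% of all genes, and a call that was lost without mouse 8, 15, 16, 19, 20 or 22 (p.adj up to 0.0702). Gad1, which makes GABA, was at 1.01 to 9.01 CPM (median 4.56) against 0.662 to 5.63 CPM (median 2.89) (log2FC 0.63 ± 0.54, p.adj = 0.503). Summed over 12 markers, inhibitory neuron RNA was at most 31.1 CPM in any CaMKII positive library.

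Glutamate receptor and potassium channel genes moved in both directions. Of 24 glutamate receptor genes, 4 were higher and 4 lower (2 lower without mouse 8), against 8.76% and 2.34% of all genes. Gria3, an AMPA receptor subunit, was at 5.72 to 15.9 CPM (median 13.1) against 0 to 3.88 CPM (median 1.95) (log2FC 2.54 ± 0.51, p.adj = 6.32e-04) and the kainate receptor Grik3 at 2.01 to 12.7 CPM (median 7.23) against 0 to 2.29 CPM (median 0.441) (log2FC 4.02 ± 0.87, p.adj = 0.00136), whereas Gria1 (log2FC −1.48 ± 0.19, p.adj = 4.43e-06) and the astrocytic metabotropic receptor Grm3 (log2FC −1.15 ± 0.15, p.adj = 5.52e-06) were lower, both near the core list (−0.30 and 0.03). Without mouse 8 the log2FC of Grm3 was −0.99 and its call was lost. Of 25 potassium channel genes, 2 were higher, a share near the 8.76% of all genes, and 3 lower. The higher count was 1 without mouse 8 or 22, and the lower count was 5, 7 and 6 without mouse 2, 15 and 16. Kcnj2, an inward rectifier of endothelium and microglia, was at 24.2 to 97.4 CPM (median 30.1) against 1.36 to 8.47 CPM (median 2.73) (log2FC 3.45 ± 0.26, p.adj = 7.09e-09). None of the 13 mitochondrially encoded genes was called, with a median log2FC of −0.43.

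Burn injury did not detectably alter the difference between the populations. Tested as an interaction of population and injury in the same edgeR model, 0 of 29746 genes (0.0%) passed, the smallest adjusted p was 1, and 406 genes had an unadjusted p under 0.05. For Slc1a2, Flt1 and Pdgfra the difference in burn minus sham mice was 0.34, −0.79 and 0.77 on the log2 scale. DESeq2 called 3 genes, all positive. With 4 burn and 6 sham mice, a change within the spread between mice was not detectable.

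The difference between the populations also departed between sequencing batches, but batch 1 held only mice 2 and 8, so batch cannot be told apart from these mice. The population difference in batch 1 departed from that in batch 3 for 199 genes (0.669%), 161 positive (0.541%) and 38 negative (0.128%). Leaving out mouse 8 gave 4 such genes, and leaving out mouse 2 gave 85. There were 7 such genes without the mouse block and 12 with edgeR's filterByExpr filter. Acta2 had the interaction 8.80 ± 0.76, p.adj = 2.79e-08: it was 286 CPM in the CaMKII positive library of mouse 8, the highest of the 10, and 0.0563 and 0.46 CPM in the ACSA2-positive libraries of batch 1, where the other ACSA2-positive libraries held 8.1 to 34.1 CPM. Foxj1, a gene of ciliated ependymal cells, had the same form, with 277 CPM in mouse 8 and 1.72 and 2.85 CPM in the ACSA2-positive libraries of batch 1. Endothelial differences were smaller in batch 1 for Tek (−1.54 ± 0.38, p.adj = 0.0460) and Pecam1 (−1.53 ± 0.37, p.adj = 0.0434), as were those of Irf7 (−2.59 ± 0.41, p.adj = 0.00128), Ifit1 (−1.997 ± 0.38, p.adj = 0.00659) and, named after its values were seen, B2m (−1.49 ± 0.37, p.adj = 0.0484). Within batch 3 alone (8 mice), the endothelial, interferon and microglial lists had 16, 23 and 13 genes higher and the astrocyte core list 11 lower.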

How the data were processed

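RNA from each sorted population was sequenced as stranded total RNA. The authors trimmed the first 15 bases with fastp, aligned reads with STAR to GRCm39 (the submitters' processing notes also list mm10) and deposited raw read counts per Ensembl gene, without replicate pooling; the counting strand was not given in the sources used here, so overlapping and antisense genes are uncertain. The deposited transformed tables were not used. Symbols and chromosomes came from GENCODE M21 for 52073 of 56980 genes.

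Genes with at least 10 counts over the 20 libraries were tested in R 4.3.3 with edgeR 4.0.16 (quasi-likelihood test, TMM factors on full library totals, mouse as a block, Benjamini-Hochberg adjustment). The number in each title is the animal in the study's sample table, so libraries of a number came from the same mouse. Deviations of paired libraries from their group means correlated at a median of 0.0758 (range −0.194 to 0.147). The own ACSA2-positive library correlated best in 1 of 10 mice, so the pairing rests on the recorded numbers and not on the counts. Of 190 library pairs none agreed within sampling noise (lowest chi-square per degree of freedom 20.2). DESeq2 1.42.0, other scalings, filters and sample sets were alternatives. The SE of a log2FC was taken as its size over the root of the F statistic. Figures were drawn with matplotlib 3.10.9 under Python 3.11.15. Non-overlap compared CPM, while fits used TMM.

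The members and the gene lists were chosen with earlier results of these data known. Genes were named by rule: Slc1a2, Flt1, Pdgfra and the sort and reporter genes; in each list up to 6 called members with the largest absolute log2FC and up to 3 members with the smallest, or any member of lists of 16 or fewer; over all genes of at least 10 CPM with 1 direction in all 10 mice, the 12 largest and 12 smallest log2FC, and the 6 per direction with the largest absolute log2FC among the 300 most abundant; and the 5 smallest p of each interaction. Sums without named members were also chosen after the values were seen. The double-positive comparison, the immunoglobulin, T cell and pineal lists, and genes described as named or chosen after their values were seen fall outside it, as does Id3. Some genes of these lists are counted but not reported here by name.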

Additional observations from a re-analysis of the deposited data

Results flagged for a closer look

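Single libraries stood apart from the other 9 of their population, by a gap test at the 95% level, in 49 of 250 groups of 10 values examined. By chance the test flags about 1 in 20 groups only where values are normally distributed. CPM values are skewed, and in some groups a single library was above 0, so the chance rate here is not known. Genes of one cell type are also not independent of each other. The values follow by mouse, and no cause was tested.

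Mouse 20, a burn mouse, was highest among CaMKII positive libraries for macrophage and antigen presentation genes. Its summed border macrophage and monocyte markers were 383.6 CPM (next 180.8) and its antigen presentation genes 8147 CPM (next 4780.0). The same library was highest in Cd74 (1395 CPM), H2-Ab1 (747.1), H2-Aa (725.6), H2-Eb1 (634.0), C1qa (273.0), Cybb (145.7), Ccnd1 (144.4), Plbd1 (82.1), Cd14 (71.15) and Cxcl9 (43.78). Its ACSA2-positive library was highest in Cd74 (4.617 CPM) and Ighm (3.078 CPM), so Cd74 was highest in mouse 20 on both sides.

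Mouse 8, a sham mouse of batch 1, was highest among CaMKII positive libraries for myelin genes, with summed myelinating oligodendrocyte markers of 4355 CPM (next 1689) and Mbp at 1800.0 CPM (next 337). It was also highest in Gfap (429.9 CPM), Acta2 (285.9), Myh11 (170.2), Kcnj2 (97.42) and Arc (48.61).

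Mouse 17, a sham mouse, was highest among CaMKII positive libraries in vessel genes: Cxcl12 (2817 CPM), Cldn5 (1232), Kdr (939.0), Slc16a1 (736.0) and Pdgfb (333.8), and in Mcm6 (48.06). In mouse 17 the mean difference of the astrocyte core genes was also the most negative of the 10. Its ACSA2-positive library was highest in Arc (17.24 CPM) and held the only Cybb reads (0.03468 CPM).

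Mouse 2 had the largest CaMKII positive library (134700000 counts, next 29700000, both rounded). Its ACSA2-positive library was highest in Cxcl12 (441.9 CPM), Irf7 (13.78), H2-Eb1 (1.014), H2-Aa (0.7042) and H2-Ab1 (0.7042). In mouse 19, Thbs4 was highest in both libraries (17.69 CPM CaMKII positive, 92.04 CPM ACSA2-positive), and the ACSA2-positive library was highest in Gfap (897.6 CPM), C4b (234.5) and Lcn2 (0.6012). In mouse 24, summed excitatory neuron markers of the CaMKII positive library were 825.1 CPM (next 598.5), Alas2 was highest there (15.3 CPM), and the ACSA2-positive library was highest in Snap25 (52.07 CPM) and Angpt2 (3.992) and lowest in Phgdh (259.9). The ACSA2-positive library of mouse 16 was highest in C1qa (9.391 CPM) and C3ar1 (6.277), and that of mouse 18 had the lowest summed mural markers (516.9 CPM, next 894.6) and the highest Ccr2 (0.8096 CPM).

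The difference between populations departed between batches for 199 genes (edgeR interaction, batch 1 minus batch 3). Among genes named here it was positive for Acta2 (8.80), Foxj1 (6.72), Myoc (4.51), Thbs1 (4.21) and Myh11 (3.67). It was negative for the class II genes H2-Aa (−8.19), H2-Eb1 (−5.82) and H2-Ab1 (−5.13), for the interferon genes Irf7 (−2.59), Ifit1 (−1.997), Gbp3 (−1.82) and Stat2 (−1.10), for the class I subunit gene B2m (−1.49), and for the vessel genes Abcc9 (−2.26), Tek (−1.54) and Pecam1 (−1.53). Adjusted p ran from 2.79e-08 for Acta2 to 0.0484 for B2m, and with 2 mice in batch 1 these values rest on mice 2 and 8.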

How the results depend on the processing

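The 3302 genes called were 3029 to 3359 when each mouse was left out in turn (2420 to 2578 higher, 567 to 810 lower). Without the replicate block, with batch and treatment as terms, 4320 were called (3448 higher, 872 lower), of which 3001 were also called with the block, and no list median changed sign; libraries of a number come from the same animal. DESeq2 called 3218 higher and 984 lower, with 8074 adjusted p-values missing, and batch 3 alone gave 2430 and 744. Counts moved by over 1.5 times without a minimum fold (6712 called, 3035 lower), with library size alone (370 lower), with scaling to the astrocyte core list (9492 called, 9464 higher, 28 lower), with all kept libraries and no block (4978 called, 1074 lower) and in burn mice alone (2133 called, 347 lower), where fewer samples were fitted. For treatment, DESeq2 called 3 genes, all positive, against 0. For batch, there were 7 without the block (6 positive, 1 negative), 362 with DESeq2 (328 positive), 15 negative with library size alone, 12 with the filterByExpr filter (10 and 2), 395 without a filter on low counts (278 and 117), and 4 to 347 with a mouse left out (2 to 268 positive, 2 to 135 negative). Among genes called in either fit, the sign turned relative to the core list for Aldh1l1 (0.0729), Angpt1 (0.0975), Cspg5 (0.0919), Fgfr3 (0.137), Grm3 (0.0258), Nfib (1.01, now called), Nrarp (0.158), Rorb (0.0247), Sox9 (0.123), Sparcl1 (0.0726), Vegfb (0.0781) and Wnt7b (0.0314), by construction of that scaling. The median of 25 potassium channel genes (−0.14) became 0.02 with library size alone and 0.04 in sham mice alone, and that of 24 glutamate receptor genes (0.65) became −0.25 with all kept libraries. The cause of the other shifts was not tested. Over all alternatives, values of the genes named stayed on the same side of the threshold in 3655 cases (14 of them, in 11 genes not called, with the other sign), were no longer called in 127, became called in 24 and turned sign in 12. At 3 counts the floor of 0.0223 to 0.225 CPM limits the genes near 0.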

Other observations

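Some genes with large differences outside the lists are described here, among them genes known from endothelium and from astrocytes. Among higher genes were Podxl, a sialomucin of endothelium, at 420.5 to 1335 CPM (median 552) against 19.3 to 149.5 CPM (median 81.5) (log2FC 2.91 ± 0.23, p.adj = 9.77e-09), and Adgrl4, an adhesion receptor of endothelium, at 406 to 1215 CPM (median 564) against 18.3 to 156 CPM (median 71.7) (log2FC 2.93 ± 0.25, p.adj = 2.01e-08). Among lower genes were Mfge8, a secreted bridge for engulfment, at 519 to 1712 CPM (median 1085) against 2076 to 3477 CPM (median 3045) (log2FC −1.52 ± 0.16, p.adj = 2.95e-07), and Slc7a11, the cystine and glutamate exchanger, at 221 to 596 CPM (median 337) against 595 to 1279 CPM (median 945) (log2FC −1.57 ± 0.14, p.adj = 4.37e-08). Relative to the astrocyte core list the latter pair stood at −0.35 and −0.39, so neither was lower by the fold threshold. Gdpd2, a glycerophosphodiester phosphodiesterase, was at 3.93 to 43.8 CPM (median 15.9) against 54.0 to 84.0 CPM (median 64.9) (log2FC −2.15 ± 0.27, p.adj = 3.38e-06) and at −0.97 relative to the core.

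No ependymal or choroid plexus marker of 10 was called, though 1 was lower without mouse 8. The median log2FC was −1.15 (−1.91 without mouse 2 and −0.57 without mouse 24, the extremes with a mouse left out), the summed level ran from 8.93 to 614 CPM in CaMKII positive and from 11.0 to 258 CPM in ACSA2-positive libraries, and it was higher in the CaMKII positive library of 4 of 10 mice. Of 7 red blood cell genes tested, 1 was called higher, against 8.76% of all genes. This was Alas2, at 0 to 15.3 CPM (median 3.22) against 0 to 2.20 CPM (median 0.0867) (log2FC 3.99 ± 1.07, p.adj = 0.00923).

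Genes of pineal cells and photoreceptors, listed after their values were seen, were concentrated in few libraries. Tph1, which makes the serotonin precursor of melatonin, was at 81.6 CPM in the ACSA2-positive library of mouse 24, 29.0 in that of mouse 16 and at most 1.93 in the other 8. Rbp3, a retinoid carrier, was at 97.2, 26.6 and at most 3.21 CPM in the same libraries. Among CaMKII positive libraries only that of mouse 18 held reads of either gene, at 3.97 and 3.39 CPM. Of the 9 listed genes tested, 3 were called lower in CaMKII positive libraries, relative to all genes and to the core list alike.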
